A study of Mus musculus with 34 samples.

Results

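The mitochondrial respiratory chain genes were taken as every gene on the array whose symbol starts with Nduf, Uqcr, Atp5 or Sdh and a single further letter, or with Cox followed by 4, 5, 6, 7 or 8. The rule uses names and no measured value. It found 71 of the 8252 genes that the annotation of the array platform gives a symbol of their own, with 98 probe sets between them, and each gene was read from its probe set with the highest mean signal. By complex the members were 29 subunits of complex I with 2 assembly factors, 4 of complex II, 7 of complex III, 14 of complex IV with the related gene Cox7a2l, and 14 of complex V.

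The respiratory chain lies in the inner mitochondrial membrane. Complexes I (NADH dehydrogenase) and II (succinate dehydrogenase, also an enzyme of the tricarboxylic acid cycle) pass electrons to ubiquinone, complex III passes them on to cytochrome c, complex IV (cytochrome c oxidase) reduces oxygen, and complex V (ATP synthase) makes ATP from the proton gradient. Most subunits are encoded in the nucleus, as all members here are, and a few in the mitochondrial genome, for which the array listed 0 genes under the symbols searched. Macrophages activated by lipopolysaccharide (LPS), a bacterial cell wall component sensed through Toll-like receptor signalling, are known to shift from oxidative phosphorylation towards glycolysis, and succinate oxidation at complex II is known to take part in their inflammatory response.

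The cells were mouse bone-marrow-derived macrophages, grown in culture for 7 days and profiled on Affymetrix MG-U74Av2 arrays. Stimulated cells were IL-10-/-, IL-6-/- or wild type and received LPS at 100 ng/ml together with interleukin-10 (IL-10) at 10 ng/ml, with interleukin-6 (IL-6) at 2 ng/ml, or alone. They were collected after 45 or 180 min, the IL-6 arm after 45 min alone, in 15 groups of 2 arrays each, except for IL-6-/- cells with LPS alone, which had 1 array at each time. The 16th group was resting cells on 4 arrays, with no genotype in their labels and with L-cell medium named as their source of CSF-1, in place of the mCSF named for the stimulated cells. Genotype, CSF-1 source and LPS therefore cannot be told apart in any comparison with resting cells, whereas the comparison of 180 with 45 min uses stimulated cells alone. The titles call the arrays of a group biological replicates; the number of mice is not given in the sources used here, so a p-value here speaks only of how much such arrays differ among themselves, which may be technical.

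The macrophage identity of the cells was borne out by 12 of 12 macrophage markers on the array, none of them under a signal of 200 on every array; Adgre1, which encodes F4/80, ranged from 3181.4 to 9709.8. Other cell types' markers moved as well. The summed signal of 10 stromal markers (collagens, Lox, Sparc and others) ran from 877.6 to 2421 on resting arrays, with 7 of the 10 under 200 on all of them, from 4409.7 to 9381.3 at 45 min and from 4595.5 to 9061 at 180 min. All 7 stromal markers tested were higher with LPS than in resting cells at each time, and 1 of 7 was higher at 180 than at 45 min. Of 6 granulocyte markers tested, 2 were lower with LPS than in resting cells at each time and 1 was higher at 180 than at 45 min. The sum of all 10 granulocyte markers on the array was 1477.1 to 3502.5 at rest, 613.3 to 1345.2 at 45 min and 1218.1 to 3982.4 at 180 min. The sum of 8 lymphocyte markers was lower at each later time, as the members were, at 2796.6 to 4383.6 at rest, 1899.2 to 3273.9 at 45 min and 1549.5 to 1955.9 at 180 min. Of 5 tested, 1 was higher at 45 min and 1 lower at 180 min against resting, and 1 was lower at 180 than at 45 min. The T cell markers Cd3e, Cd3g and Cd8a stayed under 200 on all arrays, while Cd4 ran from 270.8 to 767.5. The sum of 6 erythroid markers was 763.8 to 1696.3 at rest, 323.4 to 1327.5 at 45 min and 812.9 to 2348 at 180 min. Of 4 tested, 1 was higher at 180 min against resting, and from 45 to 180 min 1 rose and 1 fell. The actin 3'/5' signal ratio, a measure of RNA integrity, was 1.152 to 1.248 on resting arrays, 1.295 to 2.51 at 45 min and 1.28 to 1.958 at 180 min. The Gapdh ratio went the other way, with 0.867 to 0.970 at rest, 0.628 to 0.896 at 45 min and 0.614 to 1.09 at 180 min. The part of these differences in the results was not tested. Resting replicate 4 correlated least with its group (0.873, against 0.901 to 0.906).

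A gene was tested where its signal reached 200 on at least 2 of the 32 grouped arrays. This left 64 of the 71 members, 51 of which reached 200 on all 32 arrays and 4 on fewer than 16. The other 7 (Atp5j2, Cox5a, Cox6b2, Cox7a1, Cox8a, Ndufa12 and Ndufs4) were not tested. Differences were taken on log2(signal + 50), which understates the change of dim genes. A change was called where limma's adjusted p, over all 8224 probe sets tested, was under 0.05. In these whole-culture arrays, fewer expressing cells and less RNA per cell cannot be told apart.

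As a group the members were highest in resting cells, lower after 45 min of LPS and lowest after 180 min. The mean log2 signal over the 64 tested members was 10.38 to 10.62 on the 4 resting arrays, 10.02 to 10.38 on the 17 arrays at 45 min and 9.76 to 10.05 on the 11 arrays at 180 min. The same mean over all probe sets tested was 8.94 to 9.05, 8.97 to 9.08 and 8.97 to 9.02 at these times. By complex, the medians over arrays were 10.45, 10.11 and 9.76 for complex I at rest, 45 and 180 min. They were 10.90, 10.45 and 10.03 for complex II, 11.23, 10.88 and 10.54 for complex III, 10.38, 10.25 and 10.21 for complex IV, and 10.53, 10.23 and 10.12 for complex V. The medians were lower at each later time in every complex, and by the smallest step for complex IV between 45 and 180 min. The difference between complexes was not tested.

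**Figure D1:**
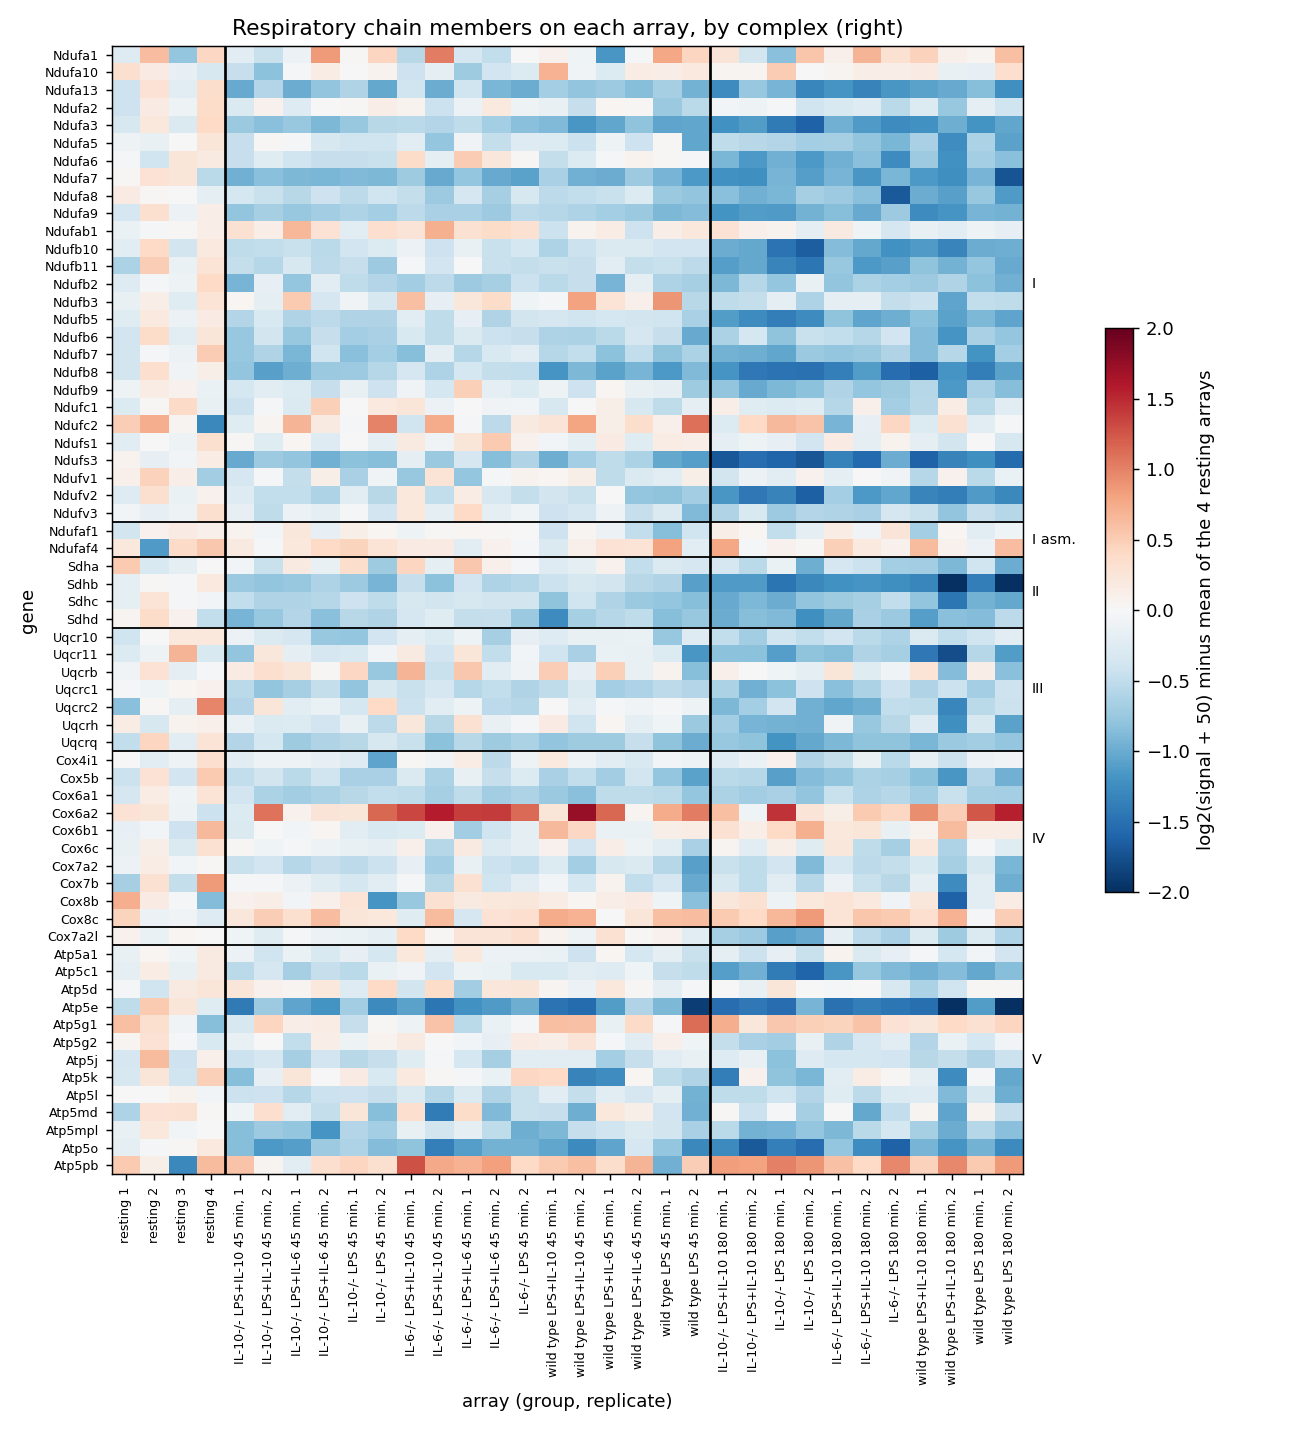
The 64 tested members (rows, grouped by complex as marked on the right; the row between IV and V is Cox7a2l) on the 32 grouped arrays (columns, resting, 45 min and 180 min separated by lines). Colour is log2(signal + 50) minus the mean of the 4 resting arrays, capped at 2 in either direction; blue rows deepen at 180 min in complexes I and II, while Cox6a2, Cox8c and Atp5pb run against the rest.

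The comparison of 180 with 45 min asks how the members changed while LPS was present. It averages 6 pairs of groups, LPS alone and LPS plus IL-10 in each of the 3 genotypes, with 11 arrays at 180 min against 11 at 45 min. Of the 64 members, 23 (35.9%) fell and 0 rose, where 25.8% of all probe sets tested were called lower and 16% higher. The median log2 difference was -0.22 for the members and -0.03 for all probe sets. After quantile normalization 22 fell and 1 rose, namely Cox6b1, a gene for a complex IV subunit (0.29, adjusted p = 0.0422, against 0.23 and 0.152 on the deposited scale). In complex I 13 of 27 fell, in complex II 3 of 4, in complex III 3 of 7, in complex IV 0 of 10 and in complex V 3 of 13, and Cox7a2l fell too.

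The members' median difference was below 0 in each of the 6 pairs, though not evenly. It was -0.27 in IL-10-/- with LPS, -0.36 in IL-6-/- with LPS, -0.17 in wild type with LPS, -0.20 in IL-10-/- with LPS plus IL-10, -0.24 in IL-6-/- with LPS plus IL-10 and -0.32 in wild type with LPS plus IL-10. In the same order, the medians of all probe sets were 0.03, -0.09, -0.14, -0.004, -0.01 and -0.12. In wild type with LPS alone the members' median thus lay close to that of all probe sets. Of the 64 members, 26 were below 0 in all 6 pairs, against 23.8% of all probe sets. In all 6 pairs 0 members were above 0, a count for which no share of all probe sets was taken.

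**Figure D2:**
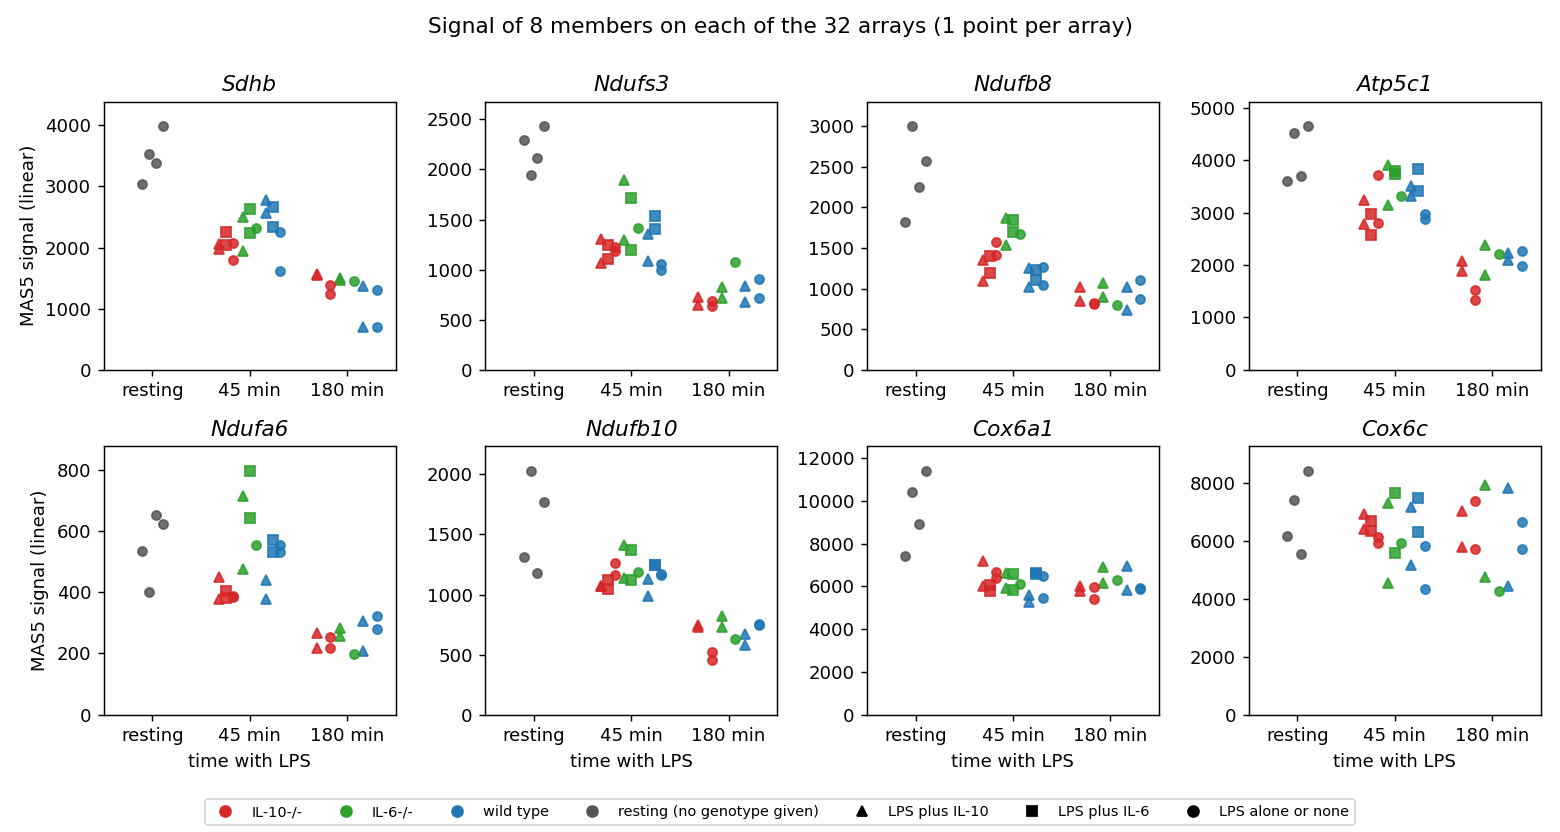
MAS5 signal (linear axis from 0) of 8 members on each of the 32 arrays, by time with LPS, coloured by genotype and shaped by treatment. Sdhb, Atp5c1, Ndufa6 and Ndufb10 at 180 min lie wholly below the 45 min arrays, while Cox6a1 and Cox6c at 180 min overlap 45 min.

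Against resting cells, wild-type cells given LPS alone showed falls in many of the members by 45 min and in more by 180 min. After 45 min 23 of 64 (35.9%) fell and 0 rose, where 7.75% of all probe sets were called lower and 9% higher. After 180 min 32 of 64 (50%) fell and 1 rose, where 19.4% were called lower and 14.4% higher. The median log2 difference of the members was -0.50 at 45 min and -0.61 at 180 min, against 0.03 and -0.09 for all probe sets. These comparisons rest on 2 LPS arrays against 4 resting arrays: without LPS replicate 2 the members called numbered 9 at 45 min and 19 at 180 min. Of the 64 members, 22 were called lower at both times, 10 at 180 min alone and 1, Ndufa2, at 45 min alone. The 2 comparisons share the resting arrays and are not independent of each other.

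**Figure D3:**
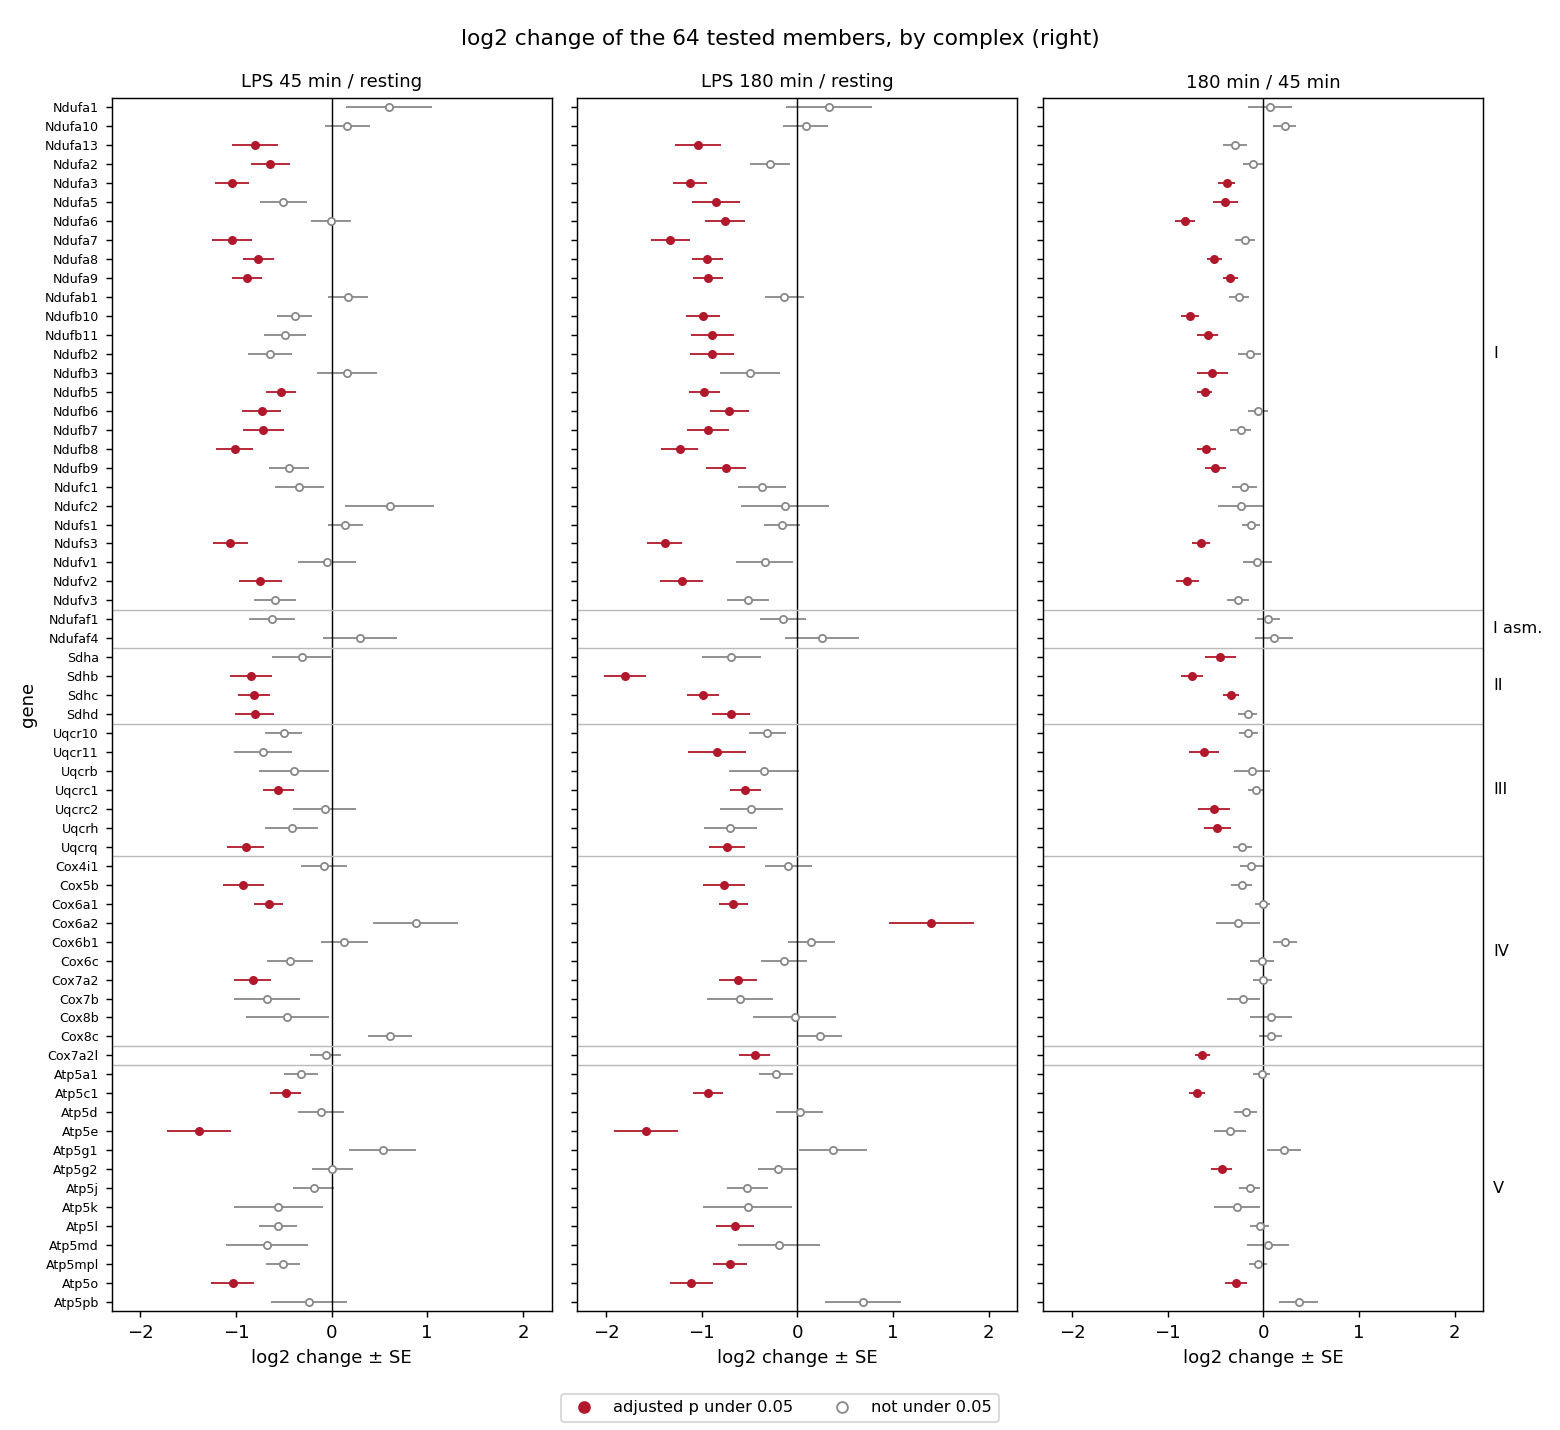
log2 change (points) ± SE (bars) of the 64 tested members, by complex as marked on the right, for wild-type LPS 45 min over resting, wild-type LPS 180 min over resting, and 180 over 45 min averaged over 6 pairs of groups. Filled red points have an adjusted p under 0.05: 23, 33 and 23 members, all lower except Cox6a2 at 180 min over resting.

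Complex I, the largest of the complexes, had calls in core and accessory subunits alike, though not in all of them. Of its 4 tested core subunit genes, Ndufs3 and Ndufv2 were called lower in all 3 comparisons and Ndufs1 and Ndufv1 in none. Of its 27 tested subunits, 12 fell at 45 min and 17 at 180 min against resting cells, and 0 rose at either time. The shares of all probe sets called lower were 7.75% and 19.4%. Ndufs3, a core subunit of the arm that carries the iron-sulphur clusters, read 904.6 and 716.8 in wild-type cells after 180 min of LPS, against 2294.3, 1949.9, 2111.6 and 2435 in resting cells. The groups did not overlap, and the log2 difference was -1.39 ± 0.18 (SE; adjusted p = 1.69e-06). It had reached -1.06 ± 0.18 at 45 min (1052 and 997.3; adjusted p = 0.000211).

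Ndufs3 fell further between the times. The 11 arrays at 180 min read 636.3 to 1076.2 (median 716.8), against 997.3 to 1900 (median 1222.1) at 45 min, a log2 difference of -0.65 ± 0.09 (adjusted p = 2.9e-06). Only the ends of these ranges overlapped. Ndufv2, a core subunit of the module that oxidises NADH, read 743.8 and 667.7 with LPS at 180 min, against 1405.6, 2123.6, 1542.2 and 1800.1 in resting cells (-1.21 ± 0.23, adjusted p = 0.000168), with no overlap. Its other tested probe set did not show this (-0.11, adjusted p = 0.766, and 0.04 for 180 against 45 min, adjusted p = 0.822), so the fall of Ndufv2 rests on 1 of 2 probe sets. The core subunit genes Ndufs1 (-0.16, adjusted p = 0.561) and Ndufv1 (-0.34, adjusted p = 0.414) were not called at 180 min against resting.

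Among the accessory subunits of complex I, the largest falls at 180 min against resting were those of Ndufa7 and Ndufb8. Ndufa7 read 3067.8 and 1750.2, against 5992.8, 7210.1, 6950.2 and 4026 in resting cells (-1.33 ± 0.21, adjusted p = 1.8e-05). Ndufb8 read 875.7 and 1101.1, against 1822.3, 3003.3, 2254.5 and 2568.7 (-1.23 ± 0.19, adjusted p = 1.72e-05). For each gene all LPS arrays lay below all resting arrays. Most of the fall of Ndufa7 was present at 45 min (-1.04 ± 0.21, adjusted p = 0.00101), and its further difference between 180 and 45 min was not called (-0.19, adjusted p = 0.154).

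Ndufa6, Ndufb10 and Ndufb11, also accessory subunits, were called lower between 45 and 180 min but not at 45 min against resting. Ndufa6 was not called against resting at 45 min (553.5 and 532.3, against 535.8, 400.9, 650.8 and 621.4; 0.00 ± 0.21). At 180 min it read 197.1 to 321.9 (median 255.7) over 11 arrays, against 377.7 to 714.6 (median 451) over the 11 arrays at 45 min, a log2 difference of -0.82 ± 0.11 (adjusted p = 8.37e-07). Ndufb10 read 457.1 to 821.6 (median 730.7) at 180 min, against 984.6 to 1410.3 (median 1161.9) at 45 min (-0.76 ± 0.09, adjusted p = 2.31e-07). Neither gene's arrays overlapped between the times. Ndufb11 (-0.58) had no overlap between the times either, nor had Ndufb5 (-0.61), which was already lower at 45 min against resting (-0.53 ± 0.16, adjusted p = 0.0251). The 2 assembly factors tested, Ndufaf1 and Ndufaf4, were called in none of the 3 comparisons.

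Complex II had falls in each of its subunit genes in at least 1 of the 3 comparisons. Sdhb, the iron-sulphur subunit, had the largest fall of all 64 members at 180 min against resting. It read 1301.3 and 705.6, against 3043.3, 3524.8, 3382.1 and 3990.6 in resting cells, a log2 difference of -1.80 ± 0.22 (adjusted p = 6.12e-07) or 3.48-fold lower. At 45 min it read 2259.8 and 1611.9 (-0.84 ± 0.22, adjusted p = 0.0101), and without LPS replicate 2 this difference was -0.61 (adjusted p = 0.193). Over all genotypes Sdhb read 701.1 to 1560.9 (median 1386.7) at 180 min, against 1611.9 to 2782.4 (median 2075) at 45 min, with no overlap (-0.74 ± 0.11, adjusted p = 6.73e-06).

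Sdhc, which encodes a membrane anchor subunit, read 1558.2 and 1480.3 with LPS at 180 min, against 2690.3, 3680.7, 2976.2 and 2944.3 at rest (-0.98 ± 0.17, adjusted p = 4.89e-05), with no overlap. It also fell at 45 min (-0.81 ± 0.17, adjusted p = 0.00134) and from 45 to 180 min over all genotypes (-0.33 ± 0.08, adjusted p = 0.00224). Sdhd, the other membrane anchor, fell early: it read 1637.3 and 1739.5 at 45 min, against 3098.8, 3849.8, 3163.9 and 2096.3 in resting cells (-0.80 ± 0.20, adjusted p = 0.00707), and its difference between 180 and 45 min was not called (-0.17, adjusted p = 0.214). Without LPS replicate 1 the Sdhd differences from resting were -0.76 at 45 min (adjusted p = 0.0738) and -0.52 at 180 min (adjusted p = 0.152). Sdha, the flavoprotein that oxidises succinate, was dim (149.2 to 310.3 at 180 min, against 192.5 to 487.1 at 45 min). Its difference of -0.45 ± 0.16 (adjusted p = 0.0244) was called between these times but not after quantile normalization (-0.38, adjusted p = 0.0562) or over wild type and IL-10-/- alone (-0.38, adjusted p = 0.105). The call also ended on leaving out wild-type LPS 180 min replicate 2 (-0.40, adjusted p = 0.0527), IL-6-/- LPS plus IL-10 45 min replicate 1 (-0.40, adjusted p = 0.0544), IL-10-/- LPS 45 min replicate 1 (-0.36, adjusted p = 0.0625) or IL-10-/- LPS 180 min replicate 2 (-0.38, adjusted p = 0.0589).

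In complex III 2 of 7 subunit genes fell at 45 min and 3 at 180 min against resting cells. The shares of all probe sets called lower were 7.75% and 19.4%. Uqcrq read 2899.8 and 2759.3 at 180 min, against 3352.6, 6410.5, 4092.5 and 5721.1 in resting cells (-0.73 ± 0.19, adjusted p = 0.00401), and Uqcrc1, a core protein, differed by -0.55 ± 0.16 (adjusted p = 0.0103). Neither was called between 45 and 180 min. The third was Uqcr11 (-0.84 ± 0.30, adjusted p = 0.0329), which fell between the times too (-0.62 ± 0.15, adjusted p = 0.00192). There the others called were Uqcrc2, the second core protein (-0.52 ± 0.17, adjusted p = 0.0145), and Uqcrh, the hinge protein that contacts cytochrome c1 (-0.48 ± 0.14, adjusted p = 0.00755). For all 3 the ranges at 180 and 45 min overlapped.

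Complex IV had lower genes against resting cells and no further call between the times. At 45 min 3 of 10 fell against resting cells and at 180 min the same number fell with 1 gene higher. The shares of all probe sets called lower were 7.75% and 19.4%. Between 45 and 180 min 0 of 10 were called in either direction, and 0 of the 10 had an unadjusted p under 0.05. There 25.8% of all probe sets were called lower and 16% higher. Cox6a1, the isoform found in most tissues, read 5936.9 and 5865.2 at 180 min, against 7424.8, 10401.3, 8908.9 and 11395.5 in resting cells (-0.67 ± 0.15, adjusted p = 0.00107). Across all genotypes it read 5411.8 to 6935.2 (median 5982.2) at 180 min, against 5254.3 to 7204.7 (median 6116.8) at 45 min, a log2 difference of -0.01 ± 0.08. Cox7a2 (-0.62) and Cox5b (-0.77) were likewise lower than in resting cells at 180 min. Cox6c, a nuclear-encoded subunit, was called in none of the comparisons; it read 4279.3 to 7933.7 at 180 min, against 4341 to 7320.3 at 45 min. Of the 10 tested genes of complex IV, 5 were read from probe sets whose suffix says that probes may be shared with other transcripts, against 17 of all 64 members.

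Tissue-specific and paired isoforms were read in complexes IV and V. Cox6a2, the isoform typical of heart and skeletal muscle, was the one member called higher at 180 min against resting: it read 198.6 and 256.3, against 78.1, 73.5, 47.3 and 27.6 in resting cells (1.40 ± 0.45, adjusted p = 0.0167). These are low signals, its probe set did not reach 200 on any resting array, and leaving out either LPS array ended the call (adjusted p = 0.0575 and 0.133). Cox8c, an isoform known from testis, read 1030.2 and 1488.8, against 1441.5, 956.1, 996.9 and 865 in resting cells (0.24, adjusted p = 0.471), and Cox8b differed by -0.03 (adjusted p = 0.966). Cox6b1 (0.15) and Cox4i1 (-0.09) were not called either. Atp5g1 and Atp5g2 encode the same mature c subunit of the ATP synthase rotor. Atp5g2 fell between the times, with 390.9 to 637.8 (median 507.8) at 180 min, against 594 to 804.7 (median 700.2) at 45 min (-0.43 ± 0.11, adjusted p = 0.00193), while Atp5g1 was not called (0.22 ± 0.18, adjusted p = 0.367). A second probe set of Atp5g2 gave -0.06 (adjusted p = 0.837).

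Cox7a2l, known as a factor that joins complexes III and IV into supercomplexes, changed late. It differed from resting by -0.06 (adjusted p = 0.836) at 45 min and by -0.45 ± 0.16 (adjusted p = 0.0309) at 180 min. Over all genotypes it read 1454.3 to 2733 (median 1976.6) at 180 min, against 2636 to 4136.6 (median 2955.3) at 45 min (-0.64 ± 0.08, adjusted p = 5.08e-07).

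In complex V 3 of 13 genes fell at 45 min and 5 at 180 min against resting cells, and 3 fell between the times. The shares of all probe sets called lower were 7.75%, 19.4% and 25.8%, so the count between the times was not above the general share. Atp5e, the epsilon subunit of the central stalk, read 1064 and 540.7 at 180 min, against 1647.3, 3419.2, 2817.8 and 1995.6 in resting cells (-1.58 ± 0.34, adjusted p = 0.000651). The fall was there at 45 min (1256.5 and 610.2; -1.38 ± 0.34, adjusted p = 0.00569), but at each time LPS replicate 2 was the lower array, and without it the difference was -0.89 at 45 min (adjusted p = 0.192) and -1.12 at 180 min (adjusted p = 0.0534). Atp5o, which links the stator to the catalytic head, read 1159.2 and 914.8 at 180 min, against 1999.7, 2225.9, 2310.5 and 2626.5 (-1.11 ± 0.22, adjusted p = 0.000377). At 45 min its call ended without LPS replicate 2 (-0.78, adjusted p = 0.0917).

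Atp5c1, the gamma subunit that turns within the head, was the member with the smallest adjusted p between the times. It read 1325.6 to 2393.4 (median 2082.5) at 180 min, against 2793.4 to 3905.2 (median 3236.8) at 45 min, with no overlap (-0.70 ± 0.08, adjusted p = 1.38e-07). A second probe set of Atp5c1 gave -0.56 between the times (adjusted p = 1.43e-05), but 0.18 at 45 min (adjusted p = 0.529) and -0.40 at 180 min against resting (adjusted p = 0.0862), where the brighter one gave -0.48 (adjusted p = 0.0399) and -0.94 (adjusted p = 5.64e-05). By contrast the catalytic alpha subunit gene Atp5a1 read 4044.3 to 5798.7 at 180 min, against 4042.1 to 6426.4 at 45 min (-0.02 ± 0.09, adjusted p = 0.907).

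Of the 64 members, 11 were called lower in all 3 comparisons: Atp5c1, Atp5o, Ndufa3, Ndufa8, Ndufa9, Ndufb5, Ndufb8, Ndufs3, Ndufv2, Sdhb and Sdhc. A further 18 were called lower in 2, 9 in 1 and 26 in none. As shares these were 17.2%, 28.1%, 14.1% and 40.6% of the members, against 3.31%, 13.1%, 16.9% and 66.8% of all probe sets tested. The 3 comparisons overlap in their arrays, so this is a description. Atp5c1, Ndufa3 and Ndufv2 had another tested probe set, and of these only that of Atp5c1 was called, and only between the times. Of the 47 members read from probe sets with no warning suffix, 17 fell at 45 min and 24 at 180 min against resting, and 16 fell between the times. Among 13 further probe sets of member genes that were tested, 0, 2 and 3 were called lower in these comparisons and 0 higher. The shares of all probe sets called lower in them were 7.75%, 19.4% and 25.8%, so these further probe sets were not above the general share.

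The promoters of the 4 among these 11 genes with the largest falls at 180 min against resting, Sdhb, Ndufs3, Ndufb8 and Ndufv2, are printed to show the sequence in front of genes that moved together. Each is 300 bases from RefSeq (GRCm38.p6), from 250 bases before the transcription start to 50 after it, read in the gene's direction: Sdhb at chr4:140961021-140961320 (+ strand), Ndufs3 at chr2:90904672-90904971 (- strand), Ndufb8 at chr19:44555393-44555692 (- strand) and Ndufv2 at chr17:66101510-66101809 (- strand). Capitals mark matches, on either strand, to the 4 motifs searched.
Sdhb: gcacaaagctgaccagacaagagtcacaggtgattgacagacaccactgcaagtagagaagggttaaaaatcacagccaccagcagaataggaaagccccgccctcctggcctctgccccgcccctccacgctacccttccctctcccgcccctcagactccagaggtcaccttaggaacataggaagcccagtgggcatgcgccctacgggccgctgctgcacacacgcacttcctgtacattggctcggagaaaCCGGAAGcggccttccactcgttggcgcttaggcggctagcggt
Ndufs3: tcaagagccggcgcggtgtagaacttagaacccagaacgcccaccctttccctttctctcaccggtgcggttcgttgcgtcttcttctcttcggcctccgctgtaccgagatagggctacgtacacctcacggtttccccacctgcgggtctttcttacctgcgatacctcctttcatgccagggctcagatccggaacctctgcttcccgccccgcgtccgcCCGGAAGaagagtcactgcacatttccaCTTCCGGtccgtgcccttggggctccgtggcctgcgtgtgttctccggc
Ndufb8: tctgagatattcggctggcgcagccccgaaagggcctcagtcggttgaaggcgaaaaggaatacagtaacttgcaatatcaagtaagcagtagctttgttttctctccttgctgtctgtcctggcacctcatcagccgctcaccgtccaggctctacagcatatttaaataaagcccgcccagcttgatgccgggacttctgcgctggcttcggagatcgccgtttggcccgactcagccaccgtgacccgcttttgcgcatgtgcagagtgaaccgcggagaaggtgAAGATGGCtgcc
Ndufv2: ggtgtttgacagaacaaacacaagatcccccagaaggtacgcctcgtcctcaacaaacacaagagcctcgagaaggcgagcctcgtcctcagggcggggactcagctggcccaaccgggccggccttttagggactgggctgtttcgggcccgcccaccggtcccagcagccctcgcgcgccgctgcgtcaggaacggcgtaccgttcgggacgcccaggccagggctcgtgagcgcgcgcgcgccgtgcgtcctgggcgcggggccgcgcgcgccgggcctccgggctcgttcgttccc

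The motifs were GCGCANGCG (of the kind bound by NRF1, a regulator of nuclear genes for mitochondrial proteins), CCGGAAG (of the kind bound by ETS factors such as GABP), AAGATGGC (of the kind bound by YY1) and TATAAA (the TATA box), each counted on its own. Promoters were found for 58 of the 71 members, and for genes with several starts the first listed was used. The NRF1-type motif was in 24.1% of the members' promoters, against 6.47% of the 27025 promoters in the table. The ETS-type motif was in 25.9%, against 9.12%, the YY1-type motif in 12.1%, against 2.88%, and the TATA motif in 10.3%, against 14.2%. Among the 10 promoters found for genes called lower in all 3 comparisons, the NRF1-type, ETS-type and YY1-type motifs were in 2, 2 and 3. Among the 19 for genes called lower in none they were in 2, 4 and 2. A match describes letters in this window and is no evidence of binding.

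The next question was whether IL-10, IL-6 or the loss of either gene altered the members. For IL-10-/- and IL-6-/- cells, and for wild type with IL-10 at 45 min, the added cytokine is named in the titles alone, not in the treatment text. With IL-10 added at 180 min, averaged over the 3 genotypes, 0 of 64 members were called, where 3.82% of all probe sets were; 0 members had an unadjusted p under 0.05. The members' log2 differences ran from -0.46 to 0.27, with a median SE of 0.16. Sdhb read 701.1 to 1560.9 (median 1489.9) with LPS plus IL-10, against 705.6 to 1453.2 (median 1301.3) with LPS alone, and the 2 ranges overlapped nearly in full.

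Within genotypes the counts were the same. In IL-10-/- cells at 180 min IL-10 called 0 members (3.54% of all probe sets; 2 members had an unadjusted p under 0.05), and in wild type 0 (0.134%; 1 unadjusted). In IL-10-/- cells Ndufb10 read 743.1 and 730.7 with LPS plus IL-10, against 518.1 and 457.1 with LPS alone. These did not overlap, but the difference of 0.55 ± 0.21 had an adjusted p of 0.227. The difference of the IL-10 response between IL-10-/- and wild type called 0 members (0.559%; 1 unadjusted). At 45 min IL-10 called 0 (1.03%) and IL-6 called 0 (0.547%), each with 0 members at an unadjusted p under 0.05. The largest log2 differences were 0.45 for IL-10 and -0.49 for IL-6.

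**Figure D4:**
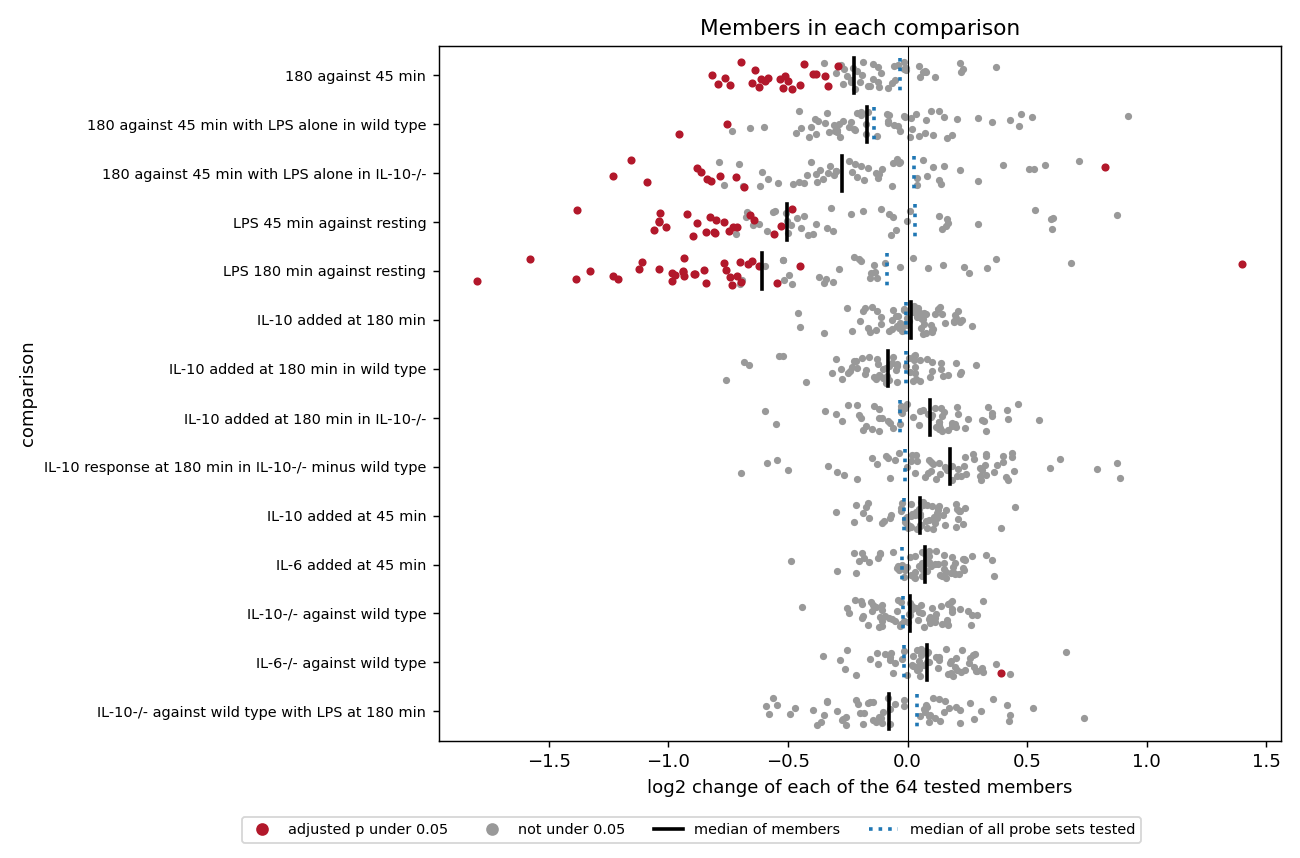
log2 change of each of the 64 tested members (points) in the 14 comparisons, with the median of the members (black bar) and of all probe sets tested (blue dotted bar). Red points have an adjusted p under 0.05; they lie to the left of 0 in the comparisons of time and of LPS with resting, except Cox6b1 in IL-10-/- and Cox6a2 at 180 min against resting, and 1 red point lies among the comparisons of cytokine and genotype.

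In the fit without a replicate block, the comparisons of genotype called 1 member. Averaged over the matched treatments, IL-6-/- cells had 1 of 64 members called, where 3.72% of all probe sets were called. An unadjusted p under 0.05 was found for 13 members, of which Cox6b1 and Ndufa10 were lower in IL-6-/- and the others higher. For the unadjusted counts, here and in the other comparisons, no share of all probe sets is given, so they cannot be judged against one. The called member was Sdhc (0.39 ± 0.09, adjusted p = 0.0171). It read 1842.5 to 2443.3 (median 2360.3) on 8 IL-6-/- arrays, against 1087 to 2302.7 (median 1739.1) on 10 wild-type arrays. The ranges overlapped. Stromal markers also moved with this comparison, 4 of 7 being lower in IL-6-/-; their part in the result was not tested. IL-10-/- cells had 0 members called against wild type (3.53%; 7 unadjusted), and 0 with LPS alone at 180 min (2.87%; 3 unadjusted). In that last comparison Cox7a2l came nearest, with 1454.3 and 1534.6 in IL-10-/-, against 2553.6 and 2031.7 in wild type (-0.59 ± 0.18, adjusted p = 0.0927).

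The course from 45 to 180 min with LPS alone was also fitted within 2 genotypes, with 2 arrays at each time. In IL-10-/- cells 10 members fell and 1 rose, where 10.5% of all probe sets were called lower and 6.57% higher. Ndufb10 (518.1 and 457.1 at 180 min, against 1165.3 and 1261.6 at 45 min; -1.23 ± 0.21, adjusted p = 0.000138) and Atp5c1 (1522.9 and 1325.6, against 2802.1 and 3719.8; -1.16 ± 0.18, adjusted p = 6.47e-05) fell most. Ndufv2, Cox7a2l and Ndufa3 followed with -1.09, -0.88 and -0.86, and Cox6b1 was higher (391.3 and 497.9, against 235.7 and 219.1; 0.83 ± 0.28, adjusted p = 0.0465). Averaging all probe sets of a gene ended the calls of Ndufb10 (-0.41, adjusted p = 0.361) and Ndufa3 (-0.44, adjusted p = 0.311). Leaving out 1 array lowered the count to 6 (LPS 45 min replicate 1), 5 (LPS 45 min replicate 2), 6 (LPS 180 min replicate 1) or 4 (LPS 180 min replicate 2). Ndufv2 was not called without LPS 45 min replicate 1 (adjusted p = 0.0662) or LPS 180 min replicate 2 (adjusted p = 0.0648), Ndufa3 not without the second array of either time (adjusted p = 0.0619 at 45 min and 0.0596 at 180 min), and Cox6b1 not without any 1 of the 4 arrays (adjusted p = 0.0819 to 0.269), with a pseudocount of 10 (0.0519) or with no filter (0.0786).

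In wild-type cells 2 fell and 0 rose, where 7.13% of all probe sets were called lower and 6.77% higher. They were Sdhb (1301.3 and 705.6, against 2259.8 and 1611.9; -0.96 ± 0.26, adjusted p = 0.0118) and Ndufa6 (321.9 and 281.3, against 553.5 and 532.3; -0.76 ± 0.24, adjusted p = 0.0386). The count dropped to 0 without wild-type LPS 45 min replicate 1 or LPS 180 min replicate 2, and to 1 without LPS 180 min replicate 1. Sdhb was not called without the first 2 of these arrays (adjusted p = 0.177 and 0.280), and Ndufa6 not without any 1 of the 4 (adjusted p = 0.0885 to 0.191), with no filter (0.0596) or after quantile normalization (0.0740). The difference in this course between the genotypes was not tested.

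Genes of neighbouring mitochondrial pathways were read from lists of other genes in the same fits. For the counts of these lists, 25.8% of all probe sets fell and 16% rose from 45 to 180 min. At 180 min against resting 19.4% fell and 14.4% rose. Of 56 tested genes for proteins of the mitochondrial ribosome (symbols Mrpl and Mrps), 19 fell and 2 rose from 45 to 180 min, with a median of -0.18, and 20 fell and 2 rose at 180 min against resting. Mrps12 fell most against resting, with 91.7 and 91.1, against 604.5, 466, 587.9 and 530 (-2.07 ± 0.36, adjusted p = 6.53e-05), while Mrpl52 rose (5010.9 and 5233.1, against 1825.2, 1538.6, 1724.9 and 1473.8; 1.62 ± 0.14). Of 22 genes listed for the tricarboxylic acid cycle and pyruvate dehydrogenase, 10 fell and 3 rose from 45 to 180 min, and 6 fell and 3 rose at 180 min against resting. This list also holds Acod1, which is counted among those that rose each time. Idh2, mitochondrial isocitrate dehydrogenase, fell by 1.67 against resting on the log2 scale (adjusted p = 9.18e-05) and Fh1, fumarate hydratase, by 1.38 (adjusted p = 0.000165).

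Acod1, whose product makes itaconate, an inhibitor of succinate dehydrogenase, moved the other way. It read 31971.2 and 32222.9 at 180 min of LPS, against 498.8, 247.8, 213 and 377 in resting cells (6.45 ± 0.23, adjusted p = 1.07e-16). Of 16 electron carriers, assembly and related genes outside the symbol rule, 6 fell and 1 rose from 45 to 180 min. Coq9, needed to make ubiquinone (-0.82), and Atpif1, the inhibitor of ATP synthase (-0.59), were among those that fell, and Gpd2, which feeds electrons from glycerol 3-phosphate to ubiquinone, rose (1.17 ± 0.16, adjusted p = 1.47e-06).

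Glycolysis genes went in the opposite direction to the members from 45 to 180 min. Of 16 tested, 10 rose and 2 fell, with a median of 0.66, where 16% of all probe sets rose and 25.8% fell. The 16 include the transcription factor gene Hif1a and the transporter gene Slc2a1, both of which rose. At 180 min the glucose transporter gene Slc2a1 read 1899.3 and 2177.8, against 53.3, 171.5, 139.2 and 275 in resting cells (3.43 ± 0.29, adjusted p = 1.25e-09). Hexokinase 2 (Hk2) read 4667.2 and 5605.3, against 512.9, 472, 584.7 and 1002.2 (2.96 ± 0.21, adjusted p = 6.1e-11). The early reading differed: at 45 min against resting 2 glycolysis genes rose and 6 fell, among them Aldoa and Pkm. At that time 9% of all probe sets rose and 7.75% fell. Unlike Slc2a1 and Hk2, Aldoa and Pkm were still below every resting array in wild-type cells at 180 min of LPS. Aldoa read 6848.4 and 9170.8, against 10932.3 to 16054.9 at rest, and Pkm 9807.1 and 8650.6, against 12860.6 to 24887.6. With IL-10 added at 180 min 4 of the 16 rose (Pfkfb3, Ldha, Tpi1 and Pkm, by 0.46 to 1.15) where 0 members were called. Of all probe sets, 3.82% were called in either direction with IL-10.

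Of 9 tested regulators of mitochondrial biogenesis, 3 rose and 0 fell at 180 min against resting. These were Myc (300.8 and 282.9, against 22.9, 10, 6.3 and 10.9; 2.46 ± 0.26), the coactivator gene Pprc1 (1.41 ± 0.27) and Gabpa, a subunit of GABP (1.00 ± 0.31, adjusted p = 0.0138). At 45 min against resting Myc was higher (3.03 ± 0.26) and Esrra lower (-0.97 ± 0.22, adjusted p = 0.00351). From 45 to 180 min Myc fell (-0.65 ± 0.13, adjusted p = 0.000271), while Pprc1 and Esrra rose (1.11 and 0.57). Of 23 mitochondrial carriers, porins and import genes, 7 rose and 5 fell from 45 to 180 min, with a median of 0.05. Of all probe sets, 16% rose and 25.8% fell between these times. At 180 min against resting 6 of the 23 rose and 4 fell, where 14.4% and 19.4% of all probe sets did. The chaperonin gene Hspd1 was highest there (2.08 ± 0.25, adjusted p = 3.67e-07).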

How the data were processed

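The authors deposited 1 linear intensity (signal) per probe set and array, made with MAS5 per the submitters' processing notes, which give no version. Array means trimmed by 2% were 500.29 to 500.4, and the signals were used as log2(signal + 50) with no further scaling. Gene names came from the platform annotation in GEO, which can be old; Entrez identifiers matched all 71 members to RefSeq (GRCm38.p6) with 0 changed symbols. Of the other probe sets, 10 that name several genes and fit the rule were left out. Control probe sets were not tested, and a signal of at least 200 on at least 2 of the 32 grouped arrays was required.

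Limma 3.58.1 in R 4.3.3 fitted 16 group means (lmFit, eBayes with a trend; 16 residual degrees of freedom) and 14 comparisons, with Benjamini-Hochberg adjustment over 8224 probe sets. The fit was tested on simulated data. The lone IL-6-/- LPS arrays were assumed to vary as the other groups did. Groups came from the titles; the treatment text of several arrays leaves out a cytokine that their title names. Of 34 arrays, 2 entered no group: 1 title has no genotype, and 1 title and protocol disagree on the time. The number of arrays limits the precision. Members and gene lists were chosen with earlier results of these data known. Members with full statistics were the up to 5 largest called rises and 5 falls per comparison, complex II and isoform pairs; related genes were up to 4 called per list. Further members were added after their values were seen, as contrast or for arrays that did not overlap. The labels tie replicate numbers to no shared animal, batch or day, and the reported fit has no block for them. Alternatives were pseudocounts of 10 and 200, no filter or one at 500, quantile normalization, no trend, a replicate block, the mean of a gene's probe sets, wild type and IL-10-/- alone, and leaving out each array.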

Additional observations from a re-analysis of the deposited data

Results flagged for a closer look

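Of the 64 members checked for an array far from the rest among the 4 resting arrays, 1 was flagged. Uqcr11 read 1809.4 on resting replicate 3, against 888.4 to 1037.7 on the other 3. Chance flags about 1 in 20 such groups. The difference of the IL-10 response between IL-10-/- and wild type called 0 members.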

How the results depend on the processing

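The counts of members called at 180 against 45 min (21 to 29), at 45 min of LPS against resting (21 to 26), at 180 min of LPS against resting (30 to 35) and at 180 against 45 min in IL-10-/- (9 to 15) stayed within 1.5 times the reported ones under the alternatives that kept all arrays. The replicate block is among these, though it gives resting replicates 3 and 4 terms of their own. They then add nothing to a comparison with resting cells. In wild type with LPS alone, 180 against 45 min gave 1 without a filter, 1 after quantile normalization and 5 with the replicate block. The replicate block also gave 1 for IL-10-/- against wild type (Cox7a2l, -0.25), 3 for IL-6-/- against wild type (Sdhc, 0.39, Atp5a1, 0.21, and Cox6b1, -0.38) and 2 for IL-10-/- against wild type with LPS at 180 min (Cox7a2l, -0.59, and Atp5c1, -0.56). Over 23 pairs of groups of a genotype, same-numbered arrays deviated together at correlations of 0.0204 to 0.441 (median 0.120), 13 of them above 0.1. All 26 arrays of the 13 stimulated groups of 2 therefore correlated best with an array of their own number, a hint of a shared effect from the data and not from the design. In these groups replicate 1 was above replicate 2 in the actin 3'/5' ratio in 13, in the members' mean log2 signal in 11 (median difference 0.04) and in the Gapdh ratio in 7. The cause was not tested. Leaving out 1 array gave 21 to 27 at 180 against 45 min, 9 to 29 and 19 to 34 for LPS at 45 and 180 min against resting, 0 to 3 in wild type and 4 to 11 in IL-10-/- with LPS alone, 1 to 1 for IL-6-/- against wild type and 0 to 0 in the 8 other comparisons of cytokine or genotype. The lone IL-6-/- arrays could not be left out of the comparisons that need them. Of 286 values of 35 single-gene differences under the other alternatives, 9 lost the call, 1 gained it and 0 reversed. Of 333 with 1 array left out, 26 lost it and 0 reversed. With the replicate block, Cox6a2 at 180 min of LPS against resting lost its call (1.13, adjusted p = 0.0957) and Sdha gained one (-0.80, adjusted p = 0.0185). Both values rest on resting replicates 1 and 2 alone, so the block and the loss of resting arrays cannot be told apart in them. Dim members such as Cox6a2 are limited by signal near background.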

Other observations

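The 2 arrays in no group read as follows. On the array whose title has no genotype, Atp5c1 read 3888.9 and Atp5a1 5874.1. On the array whose title and protocol disagree on the time, Atp5c1 read 2237.3 and Atp5a1 6072.2.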
